A study of Homo sapiens with 52 samples.

Results

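A pair of inhibitors were set directly against each other in HepG2 cells: the 3 libraries treated with PKF118-310 at 0.2 uM were compared with the 3 treated with iMDK at 10 uM, which are 6 of the 52 libraries of the series. HepG2 is an established human hepatoblastoma line that carries a stabilising deletion in the gene of beta-catenin. The study asked how Wnt and midkine signalling shape hepatoblastoma cells and their immune surroundings. Both groups were grown in the same medium and exposed for 48 h before RNA was isolated and poly(A) RNA was sequenced. Vehicle-treated HepG2 cells (3 libraries), HepG2 cells with iMDK at 5 uM (3 libraries) and the same 2 treatments in Huh6, another hepatoblastoma line (3 libraries each), are used beside them, as is 1 HepG2 library with PKF118-310 at 0.3 uM. The inhibitors were used at different concentrations, so an effect of the compound and an effect of its dose cannot be told apart. The labels do not say whether the 3 libraries of a group came from separate cultures, and p-values therefore measure only the spread between libraries.

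Beta-catenin is the effector of canonical Wnt signalling: when it is not degraded it enters the nucleus, binds TCF/LEF factors and switches on targets that include feedback inhibitors of the pathway itself. PKF118-310 is a small molecule that disrupts the complex of beta-catenin with TCF. Midkine (MDK) is a secreted, heparin-binding growth factor of embryonic and tumour tissue that signals through proteoglycans, integrins and other receptors, and iMDK is a small molecule described as an inhibitor of its production.

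Total counts were 18.3 to 20 M per HepG2 library, at which 3 counts correspond to 0.15 to 0.164 CPM (counts scaled to a library of 1 M). The mitochondrial share of counts was 3.91 to 4.53% with PKF118-310 and 6.59 to 7.2% with iMDK at 10 uM. Of 62696 genes in the table, 31707 had 0 counts in all 31 libraries of the tumour lines, among them abundant genes such as RPL15 and RPS4X (ribosomal proteins), AHSG (a plasma protein) and IFIT1, so a gene at 0 cannot be read as not expressed, and the cause was not tested. All 12 markers of hepatoblasts and hepatocytes were detected, with summed levels of 6730 to 7356 CPM (PKF118-310), 17803 to 18028 CPM (iMDK) and 24425 to 26702 CPM (vehicle). Of 12 monocyte and macrophage markers, C1QA, C1QB and MARCO had 0 counts in the 6 libraries, and the summed level (226 to 264 CPM with PKF118-310, 965 to 1048 CPM with iMDK) was mostly LYZ. Of 8 fibroblast markers, PDGFRA and THY1 had 0 counts, and the sum was 6.83 to 14.8 CPM. The 7 endothelial markers summed to 180 to 187 CPM with PKF118-310 and 27.5 to 29 CPM with iMDK, led by TIE1. The mitochondrial share, LYZ and TIE1 thus move with the treatment, and their part in the results was not tested.

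The 2 treatments left HepG2 cells in widely different states. At an adjusted p under 0.05, PKF118-310 exceeded iMDK in 4577 of 15451 genes tested (29.6%), and iMDK exceeded PKF118-310 in 4507 (29.2%). At least 2-fold differences were found for 818 genes (5.29%) that were higher and 1320 (8.54%) that were lower. The median log2 difference over all genes was -0.02, and the 3 values of one group did not overlap the 3 of the other for 9772 genes (63.2%). Counts of list members below are to be read against these shares. Throughout, a difference is PKF118-310 minus iMDK on the log2 scale with its standard error, and levels are CPM scaled by TMM. In bulk RNA, fewer cells of a kind and less RNA per cell cannot be told apart.

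**Figure D1:**
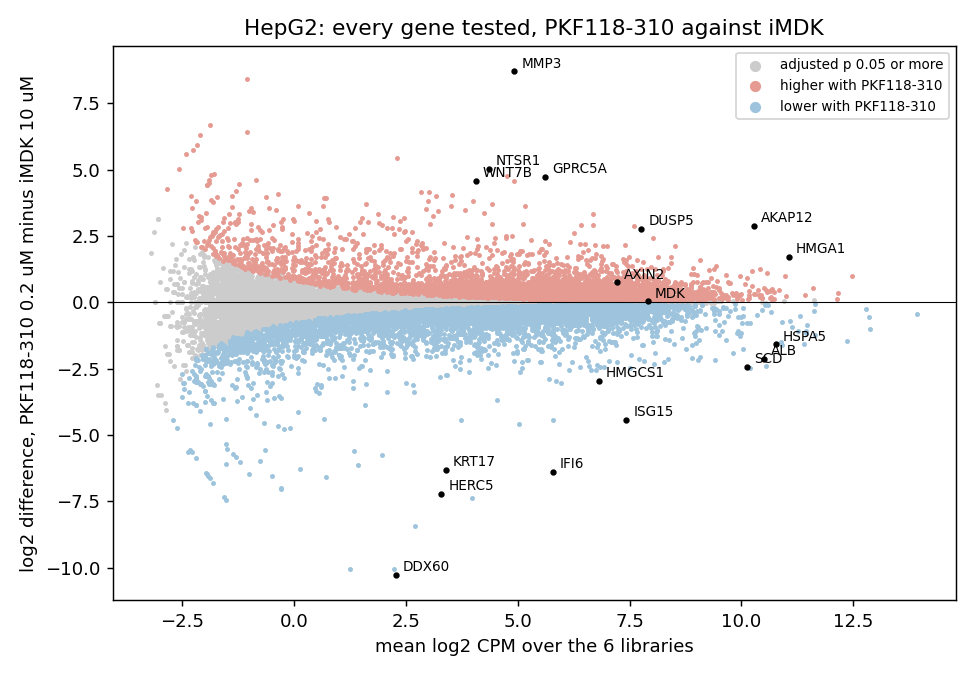
Every gene tested, with its mean log2 CPM over the 6 libraries (horizontal) and its log2 difference, PKF118-310 0.2 uM minus iMDK 10 uM (vertical). Each point is a gene, coloured by the direction of a difference with an adjusted p under 0.05. MMP3 stands highest among the labelled genes (8.71) and DDX60 lowest (-10.28), while MDK lies near 0 (0.04).

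The level of MDK itself was close in both groups. MDK (chr11:46380756-46383837 on GRCh38, plus strand) was at 248, 243 and 243 CPM with PKF118-310 and at 239, 244 and 230 CPM with iMDK. The groups overlapped, and the difference of 0.04 ± 0.033 did not pass the test (adjusted p = 0.258). Vehicle libraries had 299, 281 and 301 CPM, and MDK was lower than vehicle with each compound, by a log2 difference of -0.26 ± 0.033 with PKF118-310 and -0.31 ± 0.033 with iMDK. Of 12 tested genes for midkine and its receptors, 7 were higher with PKF118-310 and 2 lower (median 0.57). The integrin chains ITGB1 (931 against 536 mean CPM, 0.80 ± 0.034) and ITGA6 (0.76 ± 0.046) and the receptor NOTCH2 (0.93 ± 0.068) were higher. The heparan sulfate proteoglycan SDC4 (331 against 484 mean CPM, -0.55 ± 0.032) and nucleolin, NCL (-0.11 ± 0.028), were lower.

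Canonical Wnt target genes did not move as a block. Of 16 tested, 9 were higher with PKF118-310, 2 were lower and 5 did not pass the test (median 0.22). AXIN2, a scaffold of the beta-catenin destruction complex and a feedback target (chr17:65528563-65561647, minus strand), was at 186, 199 and 194 CPM with PKF118-310 and at 111, 115 and 118 CPM with iMDK, with no overlap. Its difference was 0.75 ± 0.039 (adjusted p = 1.07e-19). Vehicle libraries stood between the groups at 146, 156 and 153 CPM, so that AXIN2 was above vehicle with PKF118-310 (0.35 ± 0.039) and below it with iMDK (-0.40 ± 0.04). DKK1, a secreted Wnt antagonist, was at 418, 427 and 408 CPM with PKF118-310 and 172, 170 and 183 CPM with iMDK, and both groups were below the vehicle libraries (634, 625 and 647 CPM). The difference between the inhibitors was 1.26 ± 0.033.

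The opposite direction was seen for NOTUM, a secreted enzyme that inactivates Wnt ligands, with 142, 127 and 142 CPM against 204, 205 and 204 CPM (-0.58 ± 0.038), and for the receptor TNFRSF19 (67.6 against 131 mean CPM, -0.95 ± 0.038). LGR5, a receptor for R-spondins, was at 111, 112 and 110 CPM against 108, 105 and 108 CPM. These values did not overlap, but the difference of 0.06 ± 0.037 did not pass the test (adjusted p = 0.209). Smaller differences were measured for the feedback inhibitor NKD1 (0.15 ± 0.029), for CCND1, which encodes cyclin D1 (0.25 ± 0.03), and for CTNNB1, which encodes beta-catenin (681 against 604 mean CPM, 0.17 ± 0.028). The transcription factors TCF7L2 (0.84 ± 0.057) and TBX3 (0.48 ± 0.035) were higher with PKF118-310.

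Among 23 tested Wnt ligands and receptors, 7 were higher and 7 lower (median -0.09), beside 29.6% and 29.2% of all genes tested. The ligand WNT7B was at 81.2, 80.8 and 79.1 CPM with PKF118-310, against 2.98, 3.77 and 3.39 CPM with iMDK and 0.795, 0.785 and 0.91 CPM with vehicle. Its difference of 4.57 ± 0.082 was the largest of the list. WNT9A was also higher (1.53 ± 0.17), whereas the receptor FZD4 (-2.03 ± 0.16) and the co-receptor LRP5 (-0.53 ± 0.031) were lower.

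**Figure D2:**
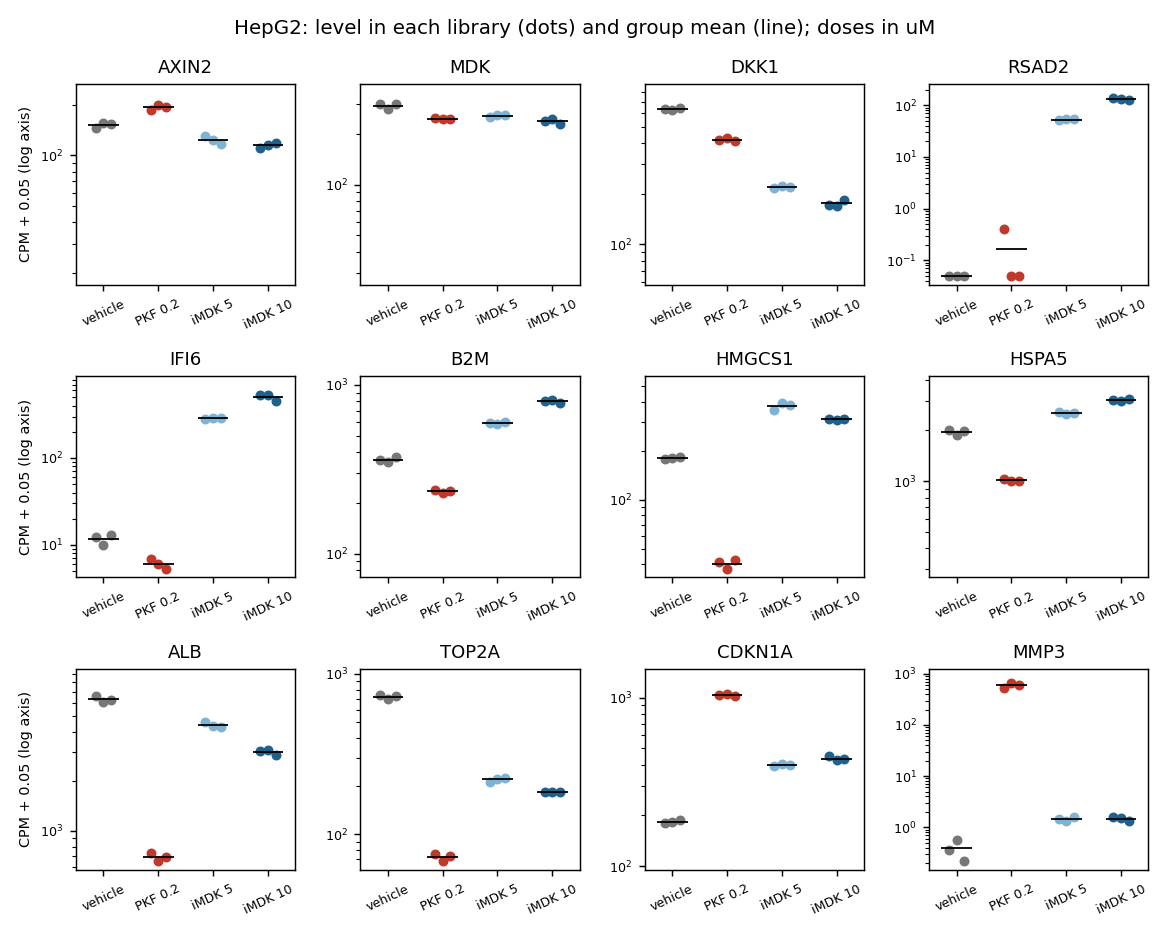
Levels of 12 genes in every HepG2 library (dots, CPM plus 0.05 on a log axis) with group means (lines), for vehicle, PKF118-310 at 0.2 uM and iMDK at 5 and 10 uM. RSAD2 and IFI6 are high in the iMDK libraries, MMP3 is high in the PKF118-310 libraries, and MDK overlaps between PKF118-310 and iMDK at 10 uM.

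Interferon-stimulated genes had the list median farthest from 0. Type I and III interferons act through JAK kinases and a transcription factor complex that binds the interferon-stimulated response element in the promoters of these genes. Of 34 tested, 33 were lower with PKF118-310 than with iMDK, 31 of them at least 2-fold, and 0 were higher (median -3.06). The 1 gene that did not pass was IFITM3 (1.54 against 2.06 mean CPM). A further 8 list members, IFIT1, IFIT2, IFIT3 and OAS2 among them, were left untested for low counts.

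The promoters of 3 of the genes with the widest differences are shown because they hold matches to the core of that element. Stretches of 100 bases from within the 250 bases before the RefSeq start (GRCh38.p14) are given 5′ to 3′ on the strand of the gene, with matches to the core GAAANNGAAA on either strand in capitals. They lie at chr4:168318753-168318852 (DDX60, minus strand), chr14:94110628-94110727 (IFI27, plus strand) and chr4:88456994-88457093 (HERC5, plus strand).
DDX60: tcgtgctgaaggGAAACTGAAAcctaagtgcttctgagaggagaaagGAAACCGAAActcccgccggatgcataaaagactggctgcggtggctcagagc
IFI27: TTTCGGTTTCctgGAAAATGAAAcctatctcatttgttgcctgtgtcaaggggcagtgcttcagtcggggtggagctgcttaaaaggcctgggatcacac
HERC5: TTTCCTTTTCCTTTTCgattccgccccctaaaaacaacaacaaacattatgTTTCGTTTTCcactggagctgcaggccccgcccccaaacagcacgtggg
The core occurred in 18 of the 29 tested interferon-stimulated genes with a promoter entry (62.1%), and in 996 of all 27305 promoter windows (3.65%), each of 300 bases. A match describes letters and does not show that a factor binds there.

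DDX60, a helicase of the antiviral response, was at 0.252, 0 and 0.0488 CPM with PKF118-310 and at 135, 133 and 127 CPM with iMDK. Vehicle libraries had 0.371, 0.314 and 0.171 CPM, so that only the iMDK libraries stood high among these 3 groups. The difference was -10.28 ± 0.14 (adjusted p = 4.21e-39). RSAD2, which encodes the antiviral enzyme viperin (chr2:6865806-6898239, plus strand), was at 0.352, 0 and 0 CPM with PKF118-310, at 136, 131 and 125 CPM with iMDK and at 0 in all vehicle libraries (-10.06 ± 0.15). IFI44, an interferon-induced cytoplasmic protein, had 2 counts over the PKF118-310 libraries and 2537 over the iMDK libraries, a ratio of 1255 with a 95% exact binomial interval of 347 to 10372 that covers counting error only.

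IFI6, an interferon-induced mitochondrial protein, was at 6.74, 5.88 and 5.27 CPM with PKF118-310 and at 535, 527 and 447 CPM with iMDK (-6.40 ± 0.073). The vehicle libraries had 12.2, 9.94 and 12.9 CPM, above every PKF118-310 library. ISG15, the ubiquitin-like modifier, was at 37.4, 38.2 and 35.2 CPM against 842, 802 and 746 CPM (-4.43 ± 0.045). Differences of -8.43 ± 0.14 for OASL, -7.36 ± 0.1 for IFI27, -7.22 ± 0.095 for HERC5, the ligase that attaches ISG15, and -4.59 ± 0.077 for MX1, an antiviral GTPase, completed the interferon-stimulated genes among the 10 lowest with a mean log2 CPM of at least 2. KRT17, a keratin, was also among those 10 (1.13 against 90.2 mean CPM, -6.31 ± 0.098).

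The machinery upstream of these genes was split. Of 17 tested interferon ligands, sensors and receptors, 9 were lower with PKF118-310 and 3 higher (median -0.15). The RNA sensor IFIH1 was at 7.09, 6.59 and 5.61 CPM with PKF118-310 and at 84.5, 85.2 and 79 CPM with iMDK (-3.69 ± 0.071), and DHX58, its relative, differed by -1.99 ± 0.084. The ligand IFNL1 had 0 counts over the 3 PKF118-310 libraries and 36 over the 3 iMDK libraries, and was at least 11.9-fold lower with PKF118-310 when 3 counts are allowed over the group. The adaptors MAVS (414 against 284 mean CPM, 0.54 ± 0.034) and STING1 (0.58 ± 0.12) and the kinase JAK1 (0.42 ± 0.032) were the 3 that were higher.

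All 15 tested genes of MHC class I presentation were lower with PKF118-310, 8 of them at least 2-fold (median -1.09). B2M, the invariant light chain, was at 238, 228 and 234 CPM with PKF118-310 and at 801, 814 and 784 CPM with iMDK (-1.78 ± 0.031, adjusted p = 1.46e-35). The vehicle libraries at 360, 350 and 372 CPM lay between them, and B2M was below vehicle with PKF118-310 (-0.63 ± 0.031) and above it with iMDK (1.15 ± 0.03). The heavy chain HLA-B (67.2 against 227 mean CPM, -1.76 ± 0.039) and the immunoproteasome subunit PSMB9 (-2.04 ± 0.17) behaved alike in direction. TAP1 and TAP2, the peptide transporter, were left untested for low counts.

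Of 14 tested chemokines and cytokines, 4 were higher and 5 lower (median -0.11), beside 29.6% and 29.2% of all genes tested. IL11, a cytokine of the IL-6 family, was at 247, 250 and 247 CPM with PKF118-310 and at 55.8, 60.8 and 56 CPM with iMDK (2.11 ± 0.041), and LIF of the same family was higher too (0.72 ± 0.05). CCL20, a chemokine for CCR6-bearing lymphocytes, was at 45.3, 39.5 and 41.6 CPM against 134, 136 and 140 CPM (-1.70 ± 0.046). IL32 was lower by a smaller amount (-0.34 ± 0.035).

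Sterol genes were uniformly lower with PKF118-310. The transcription factor SREBF2 drives cholesterol synthesis and uptake when cell sterols are low. All 23 tested genes of that list were lower, 21 of them at least 2-fold (median -2.23). HMGCS1, which makes HMG-CoA (chr5:43289395-43313512, minus strand), was at 41.2, 37.4 and 42.5 CPM with PKF118-310 and at 312, 311 and 312 CPM with iMDK (-2.95 ± 0.043, adjusted p = 6.87e-38). The vehicle libraries (178, 181 and 182 CPM) stood between the groups, with differences from vehicle of -2.16 ± 0.044 for PKF118-310 and 0.79 ± 0.037 for iMDK.

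ACAT2, which makes acetoacetyl-CoA (-3.04 ± 0.052), and STARD4, a sterol carrier (-2.64 ± 0.066), were lower as well. The sterol response element core TCACNCCAC was found, on either strand, in the promoter window of 1 of 16 of these genes, SREBF2 itself, and in 1.15% of all windows.

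All 13 tested fatty acid synthesis genes were lower as well, 6 of them at least 2-fold (median -0.87). SCD, the stearoyl-CoA desaturase, was at 501, 470 and 471 CPM against 2603, 2582 and 2604 CPM (-2.43 ± 0.031). It was below vehicle with PKF118-310 (-2.19 ± 0.03) and slightly above it with iMDK (0.25 ± 0.029). PNPLA3, a lipid droplet protein (-2.20 ± 0.057), FADS2, a desaturase (-1.61 ± 0.05), and GPAM, which starts triglyceride synthesis (-1.35 ± 0.042), had the next differences.

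Chaperones of the endoplasmic reticulum were lower with PKF118-310 in 19 of 20 tested genes, 8 of them at least 2-fold, and 0 were higher (median -0.96). HSPA5, the main chaperone of that compartment (chr9:125234853-125241330, minus strand), was at 1030, 998 and 1003 CPM with PKF118-310 and at 3046, 2995 and 3054 CPM with iMDK (-1.58 ± 0.028). Its vehicle level of 2011, 1889 and 1983 CPM lay between the groups, with -0.96 ± 0.028 for PKF118-310 and 0.63 ± 0.028 for iMDK against vehicle. PDIA4, a disulfide isomerase (-1.53 ± 0.03), SDF2L1 (-1.51 ± 0.062) and HSP90B1 (-1.41 ± 0.031) were also lower. Cytosolic heat shock genes were split, with 7 of 16 higher and 6 lower (median 0.00). HSPA8 (0.22 ± 0.027) and HSPH1 (0.23 ± 0.032) were higher and HSPB1 (-0.73 ± 0.038) lower.

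The liver programme was lower with PKF118-310 than with iMDK. Of 24 tested plasma protein genes, 23 were lower, 19 of them at least 2-fold, and 0 were higher (median -1.56). ALB, serum albumin (chr4:73397114-73421412, plus strand), was at 735, 650 and 694 CPM with PKF118-310, at 3060, 3107 and 2898 CPM with iMDK and at 6605, 6036 and 6245 CPM with vehicle. The 3 groups did not overlap, and the difference between the inhibitors was -2.12 ± 0.037 (adjusted p = 1.81e-35). TF, transferrin, was at 517, 472 and 508 CPM against 2810, 2913 and 2613 CPM (-2.48 ± 0.041).

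TTR, the carrier of thyroxine and retinol-binding protein, had a different order, with 23.7, 19.3 and 18.8 CPM with PKF118-310, 161, 150 and 175 CPM with iMDK and 111, 108 and 113 CPM with vehicle. The difference between the inhibitors was -2.97 ± 0.06, the lowest of the list. Complement C5 (-2.56 ± 0.049) and the haem carrier HPX (0.881 against 4.81 mean CPM, -2.44 ± 0.21) were also lower.

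All 15 tested apolipoprotein and lipoprotein assembly genes were lower with PKF118-310, 8 of them at least 2-fold (median -1.09). APOB, the structural protein of LDL, was at 1703, 1430 and 1546 CPM against 4440, 4604 and 4967 CPM (-1.58 ± 0.063). APOH (-2.13 ± 0.034), APOA1 of HDL (-1.97 ± 0.041) and APOM (-1.78 ± 0.053) were also lower.

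The transcription factors of the liver were less uniform, with 11 of 20 lower and 4 higher (median -0.26). The bile acid receptor NR1H4 was at 3.17, 4.22 and 3.85 CPM against 14.9, 15 and 16.2 CPM (-2.04 ± 0.11). CEBPA (-0.96 ± 0.1) and FOXA1 (-0.72 ± 0.042) were lower and PROX1 higher (135 against 99 mean CPM, 0.45 ± 0.045). Of 14 tested genes of drug and bile acid metabolism, 7 were lower and 3 higher (median -0.71), with CYP4F2 (-3.38 ± 0.16) and the sulfotransferase SULT2A1 (-2.27 ± 0.063) at the low end.

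Oncofetal genes divided into groups of opposite direction: 8 of 17 tested were higher with PKF118-310 and 7 lower (median 0.14). AFP, alpha-fetoprotein, was at 509, 433 and 462 CPM with PKF118-310 and at 1759, 1762 and 1748 CPM with iMDK (-1.91 ± 0.037), below 3548, 3388 and 3425 CPM with vehicle. The proteoglycan GPC3 (477 against 1120 mean CPM, -1.23 ± 0.03), the imprinted gene PEG10 (-1.27 ± 0.039) and DLK1 (-1.13 ± 0.035) were lower too. HMGA1, a chromatin architectural protein, was at 3900, 3841 and 3820 CPM with PKF118-310 against 1180, 1183 and 1171 CPM with iMDK and 781, 748 and 783 CPM with vehicle (1.71 ± 0.028). SOX4 (1.96 ± 0.041), the biliary keratin KRT19 (1.19 ± 0.031) and the RNA-binding protein IGF2BP1 (0.68 ± 0.033) were higher as well.

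Cell division genes were lower with PKF118-310. All 33 tested mitosis genes were lower, 26 of them at least 2-fold (median -1.35). Of 31 DNA replication genes, 29 were lower, 4 of them at least 2-fold, and 0 were higher (median -0.50). TOP2A, the topoisomerase of dividing cells (chr17:40388516-40417950, minus strand), was at 75.6, 67.8 and 73.2 CPM with PKF118-310, at 183, 184 and 183 CPM with iMDK and at 737, 695 and 726 CPM with vehicle. The levels increased in that order without overlap, and the difference between the inhibitors was -1.35 ± 0.039 (adjusted p = 3.86e-28).

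KIF20A, a kinesin of cytokinesis, was at 8.96, 8.45 and 8.53 CPM against 33.5, 33.3 and 29.3 CPM (-1.89 ± 0.073). MKI67, the proliferation antigen, was at 25.5, 18.5 and 23.1 CPM against 69, 69.2 and 67.7 CPM (-1.62 ± 0.064). The kinetochore genes SPC25 (-1.68 ± 0.14) and NUF2 (-1.59 ± 0.097) were lower as well, as were CDC6, which licenses replication origins (-1.40 ± 0.059), and the ribonucleotide reductase subunit RRM2 (-1.24 ± 0.048).

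Many promoters of mitosis genes hold CCAAT boxes, the site of the factor NF-Y, and those of KIF20A (chr5:138179012-138179111, plus strand) and SPC25 (chr2:168890431-168890530, minus strand) are shown as examples, with CCAAT on either strand in capitals.
KIF20A: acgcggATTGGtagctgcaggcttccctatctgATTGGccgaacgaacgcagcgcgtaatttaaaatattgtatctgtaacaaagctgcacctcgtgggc
SPC25: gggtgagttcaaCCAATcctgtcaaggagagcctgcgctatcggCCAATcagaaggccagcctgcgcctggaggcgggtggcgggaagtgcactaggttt
CCAAT was found in 22 of the 28 tested mitosis genes with an entry (78.6%) and in 35.7% of all promoter windows.

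Genes that control entry into the cycle were mixed, with 9 of 16 G1 cyclins, kinases and inhibitors lower and 5 higher (median -0.25). CDKN1A, which encodes the inhibitor p21 (chr6:36676460-36687339, plus strand), was at 1032, 1047 and 1016 CPM with PKF118-310, at 449, 425 and 432 CPM with iMDK and at 181, 182 and 187 CPM with vehicle. This is the reverse of the order of TOP2A, and the difference between the inhibitors was 1.24 ± 0.03. E2F1 (-1.13 ± 0.061) and the inhibitor CDKN2C (-1.49 ± 0.17) were lower.

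Stress genes were higher with PKF118-310 in part. Of 22 tested p53 targets, 14 were higher and 3 lower (median 0.33), and of 21 genes of the integrated stress response, 14 were higher and 3 lower (median 0.26). PPP1R15A, the phosphatase subunit that ends that response, was at 574, 583 and 559 CPM with PKF118-310, at 203, 204 and 210 CPM with iMDK and at 47.3, 47.7 and 48.5 CPM with vehicle (1.48 ± 0.031). SESN2, which restrains mTORC1 and is in both lists (1.01 ± 0.034), GADD45A (0.94 ± 0.039), PLK3 (0.97 ± 0.053), DDIT4 (0.83 ± 0.04) and STC2 (0.66 ± 0.033) were higher. The p53 targets CCNG1 (-0.38 ± 0.035) and BAX (-0.10 ± 0.035) were lower. So was DDIT3 of the integrated stress response, at few counts (0.199 against 0.53 mean CPM, -1.39 ± 0.58).

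NRF2 targets divided, with 15 of 22 lower with PKF118-310 and 7 higher (median -0.26). The aldo-keto reductase AKR1B10 was at 84.3, 83.1 and 82.8 CPM against 263, 240 and 266 CPM (-1.62 ± 0.043). Against vehicle it was lower with PKF118-310 (-0.29 ± 0.046) and higher with iMDK (1.33 ± 0.042). AKR1C2 (-1.43 ± 0.037) and AKR1C1 (-0.78 ± 0.031) were lower, and the counting of these near-identical genes can split or share reads. The cystine transporter SLC7A11 was at 106, 118 and 115 CPM against 48.6, 47.8 and 56.6 CPM (1.15 ± 0.056) and the exporter ABCC3 was higher too (0.49 ± 0.036).

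Of 8 tested metallothioneins and the zinc exporter, 6 were higher with PKF118-310 and 0 lower (median 1.34). These small proteins bind zinc and copper and are switched on by the metal-sensing factor MTF1. MT2A (chr16:56608199-56609497, plus strand) was at 935, 930 and 927 CPM with PKF118-310, at 306, 316 and 308 CPM with iMDK and at 96.3, 94.9 and 103 CPM with vehicle (1.59 ± 0.031, adjusted p = 1.01e-33). MT1E, a close paralogue whose reads may not be fully separable, differed by 1.63 ± 0.055. SLC30A1, the zinc exporter, is a target of the same factor and was at 128 mean CPM in both groups (0.00, adjusted p = 0.965).

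The promoter of MT2A (chr16:56608416-56608515, plus strand) is shown with matches to the metal response element core (TGCACNC or TGCGCNC, either strand) in capitals. The stretch is set from the RefSeq start, and the GENCODE 29 gene span given above begins before it.
MT2A: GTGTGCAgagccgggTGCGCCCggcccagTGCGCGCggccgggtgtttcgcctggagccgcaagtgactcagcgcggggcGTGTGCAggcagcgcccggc
The core was present in all 3 of the list's genes with a promoter entry, MT1B, MT2A and SLC30A1, and in 29.3% of all windows.

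Of 4 tested aryl hydrocarbon receptor targets, 3 were higher and 1 lower. CYP1A1, the xenobiotic-metabolising enzyme, was at 71.4, 69 and 68.6 CPM with PKF118-310 against 13.4, 12 and 11.5 CPM with iMDK and 10.5, 11.2 and 9.38 CPM with vehicle (2.50 ± 0.064). ALDH3A1 (2.60 ± 0.31) and TIPARP (0.63 ± 0.063) were higher, and NQO1, which is also an NRF2 target, was lower (-0.32 ± 0.029).

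The 10 genes with the highest differences were ranked among those averaging 2 or more in log2 CPM over the 6 libraries. Low levels with iMDK follow from that selection. With iMDK they ran from 0.696 mean CPM for PDE2A to 9.48 for GPRC5A, and with PKF118-310 from 30 to 601 mean CPM. MMP3, the matrix metalloproteinase stromelysin (chr11:102835801-102843803, minus strand), was at 537, 649 and 616 CPM with PKF118-310, at 1.54, 1.49 and 1.25 CPM with iMDK and at 0.318, 0.523 and 0.171 CPM with vehicle. Its difference was 8.71 ± 0.085 (adjusted p = 1.9e-43). NTSR1, the neurotensin receptor, was at 117, 118 and 112 CPM against 3.63, 3.48 and 3.44 CPM (5.04 ± 0.083).

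TIE1, an endothelial receptor kinase, was at 141, 139 and 139 CPM against 6.36, 4.42 and 4.84 CPM (4.74 ± 0.072), while CDH5, another endothelial marker, was at 0.197 against 0.315 mean CPM. The other genes among the 10 highest were the phosphodiesterase PDE2A (5.44 ± 0.15), GPRC5A (4.73 ± 0.055), IGFN1 (4.58 ± 0.087), WNT7B, LYPD3 (4.17 ± 0.12), TAGLN3 (4.15 ± 0.14) and ZNF804A (4.06 ± 0.11).

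Matrix metalloproteinases, the plasminogen system and their inhibitors went both ways, with 7 of 13 tested genes higher and 6 lower (median 0.20). The urokinase receptor PLAUR was higher (1.37 ± 0.069). MMP13 went the other way, with 1 count over the PKF118-310 libraries and 56 over the iMDK libraries, a ratio of 55.4 (95% interval 9.55 to 2228, counting error only).

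Of 18 tested AP-1 and EGR factors, 10 were higher with PKF118-310 and 4 lower (median 0.36). FOSL1, a subunit of AP-1, was at 212, 215 and 216 CPM against 67.6, 64.4 and 59.6 CPM (1.75 ± 0.04). JUN (0.78 ± 0.034) and KLF6 (0.78 ± 0.03) were higher. KLF4 was lower (9.46, 9.85 and 9.7 CPM against 35.1, 36 and 32.5 CPM, -1.84 ± 0.081). The AP-1 core TGANTCA was found in 2 of 5 promoter windows of the metalloproteinase list, those of MMP7 and PLAUR, in 1 of 13 of the AP-1 and EGR factors (7.69%), that of FOSL2, and in 7.76% of all windows.

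Of 12 tested feedback genes of the MAPK pathway, 7 were higher and 3 lower (median 0.21). DUSP5, a phosphatase that acts on ERK, was at 571, 557 and 563 CPM with PKF118-310, at 85.2, 82 and 81.7 CPM with iMDK and at 17.2, 17.3 and 16.9 CPM with vehicle (2.76 ± 0.035). PHLDA1 (2.12 ± 0.04) and SPRY4 (0.80 ± 0.034) were higher as well, whereas DUSP6 (-0.41 ± 0.04) and ETV5 (-0.28 ± 0.039) were lower. Of 17 YAP/TEAD targets, 9 were higher and 3 lower (median 0.28). The receptor kinase AXL was at 237, 232 and 235 CPM against 30.9, 31.3 and 31.3 CPM (2.91 ± 0.045), whereas ANKRD1 was lower (-0.70 ± 0.035).

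Some genes were named for the largest differences of mean CPM. Of these, the scaffold AKAP12 was at 3346, 3422 and 3397 CPM with PKF118-310 against 441, 444 and 488 CPM with iMDK (2.89 ± 0.044). The cytoskeletal genes ACTG1 (8073 against 4040 mean CPM, 1.00 ± 0.025) and FLNA (0.99 ± 0.036) were higher, and fibronectin, FN1, was lower (5293 against 10682 mean CPM, -1.01 ± 0.051). Epithelial and mesenchymal markers were evenly split, with 9 of 18 in each direction (median -0.01). E-cadherin, CDH1, was lower (-0.80 ± 0.071) and the repressor SNAI1 higher (1.12 ± 0.1). N-cadherin, CDH2, a mesenchymal marker, was lower as well (41.3 against 70.2 mean CPM, -0.77 ± 0.047).

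Hypoxia and glycolysis genes were lower in 9 and higher in 6 of 19 tested (median -0.10), with LDHA at -0.66 ± 0.031, NDRG1 at 0.97 ± 0.047 and PFKFB3 at 1.38 ± 0.061. BCL2 family genes were higher in 8 and lower in 4 of 14 (median 0.33). The survival factor MCL1 was at 803, 832 and 817 CPM against 528, 522 and 529 CPM (0.63 ± 0.029). Pro-apoptotic members went both ways: PMAIP1 (38.4 against 61.9 mean CPM, -0.69 ± 0.054) and BMF (-1.01 ± 0.08) were lower. BIK was higher (16.7 against 6.45 mean CPM, 1.37 ± 0.11). DNA methylation and Polycomb genes were higher in 6 and lower in 4 of 14 (median 0.02).

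Of 13 mitochondrially encoded genes, 12 were lower with PKF118-310 and 0 higher (median -0.71). MT-CO1, a subunit of cytochrome c oxidase, was at 2870, 3216 and 3420 CPM against 9326, 8556 and 8155 CPM (-1.45 ± 0.067), beside vehicle libraries at 6466, 9065 and 7252 CPM that varied more. Of 23 ribosomal protein genes, 22 were higher and 0 lower, by small amounts (median 0.19). RPL4 was at 1884, 1805 and 1859 CPM against 1380, 1347 and 1387 CPM (0.43 ± 0.027).

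**Figure D3:**
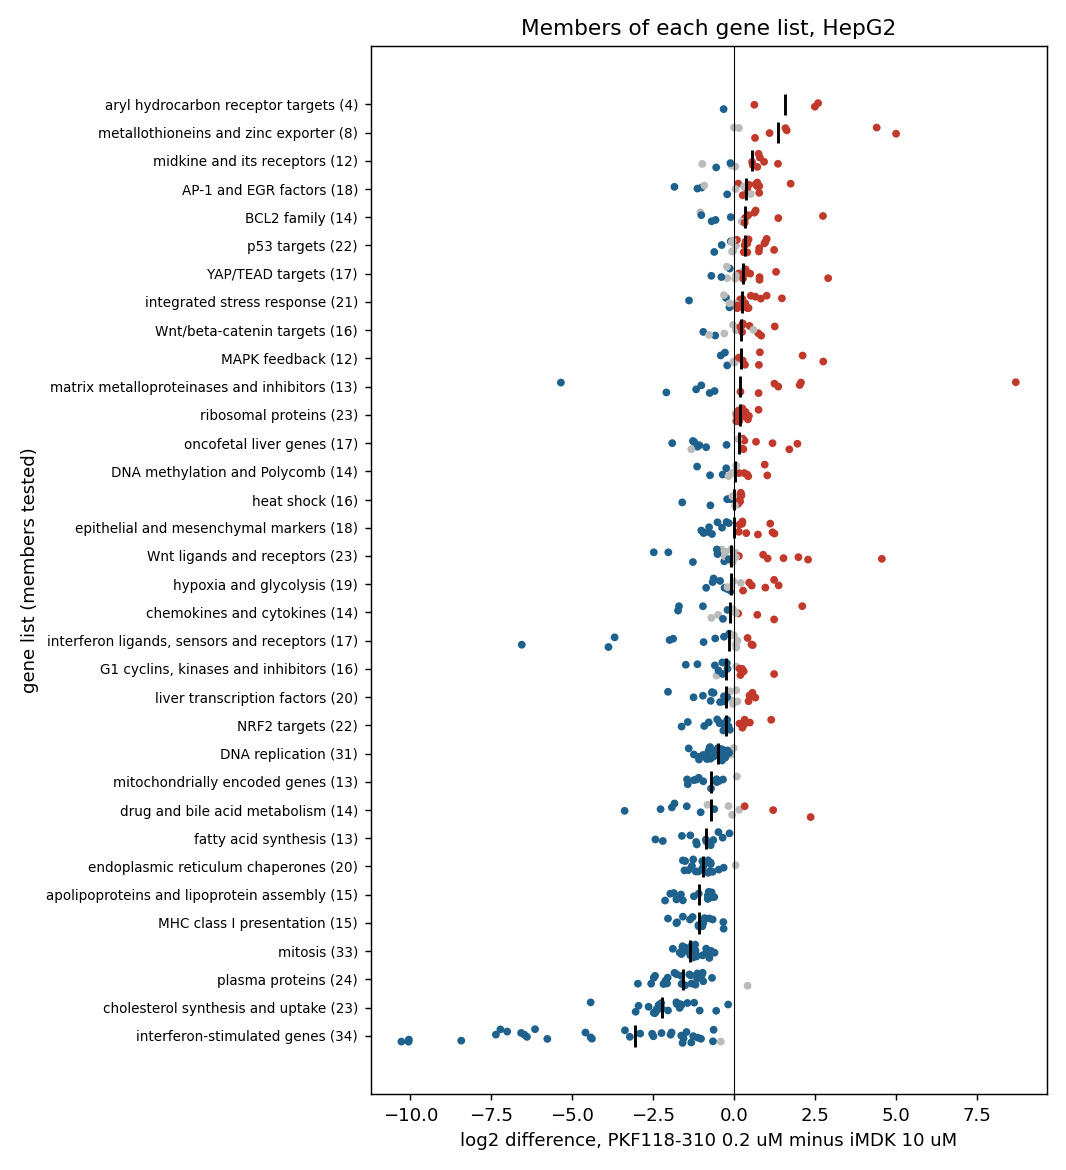
Log2 difference, PKF118-310 0.2 uM minus iMDK 10 uM, of each tested member (dots) of 34 gene lists, with the list median (bar). Red and blue dots are genes higher and lower with an adjusted p under 0.05 and grey dots did not pass. The median runs from -3.06 for interferon-stimulated genes to 1.57 for the 4 aryl hydrocarbon receptor targets.

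Against the lower dose of iMDK, 5 uM, PKF118-310 gave counts of similar size. It exceeded iMDK in 4746 genes (30.7%), with at least 2-fold differences in 918 (5.94%). It lay below iMDK in 4613 genes (29.9%), with at least 2-fold differences in 1462 (9.46%). Both comparisons share the PKF118-310 libraries, so their values are set side by side only. For RSAD2 the difference was -8.76 against 5 uM and -10.06 against 10 uM, and for B2M it was -1.35 and -1.78. For ALB it was -2.66 and -2.12, for TOP2A -1.61 and -1.35, and for HMGCS1 -3.22 and -2.95. MDK did not pass at either dose (-0.06, adjusted p = 0.0955, against 5 uM). PMAIP1 had opposite signs, lower than with 10 uM (-0.69) and higher than with 5 uM (0.20). LGR5, which did not pass against 10 uM, was lower than with 5 uM (-0.17, adjusted p = 0.000124). The single library at 0.3 uM PKF118-310 had 0.165 CPM for RSAD2, 352 CPM for MMP3, 51.9 CPM for HMGCS1 and 215 CPM for AXIN2.

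The same contrast in Huh6 differed for 12 of 13 genes chosen for this test, by an interaction over the 12 libraries concerned (15484 genes tested). These genes were chosen with earlier results of these data known. The share of all genes that passed is not reported here, so the count cannot be set against it. HMGCS1 was lower with PKF118-310 in HepG2 and higher in Huh6 (302 ± 6.19 against 184 ± 5.01 CPM, SD, 0.71 ± 0.031), a difference between lines of -3.66 ± 0.048. AFP (-3.56 ± 0.062), TOP2A (-2.12 ± 0.043) and HSPA5 (-1.83 ± 0.035) likewise had opposite directions in the lines, and CDKN1A was higher in HepG2 and lower in Huh6 (1.80 ± 0.041). These are directions of one inhibitor against the other. Huh6 vehicle levels are not reported here, so which compound moved a gene in Huh6 cannot be told. For Huh6, 0.2 uM was the lowest PKF118-310 dose of the series. AXIN2 was higher with PKF118-310 in both lines, by more in HepG2 (0.54 ± 0.046). CTNNB1 had a difference between lines of -0.02 ± 0.036 that did not pass (adjusted p = 0.657). Of the interferon-stimulated genes, RSAD2 and IFI6 were compared, and in Huh6 IFI6 was at 1.54 ± 0.0302 and 1.15 ± 0.234 CPM (SD, n = 3 libraries).

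**Figure D4:**
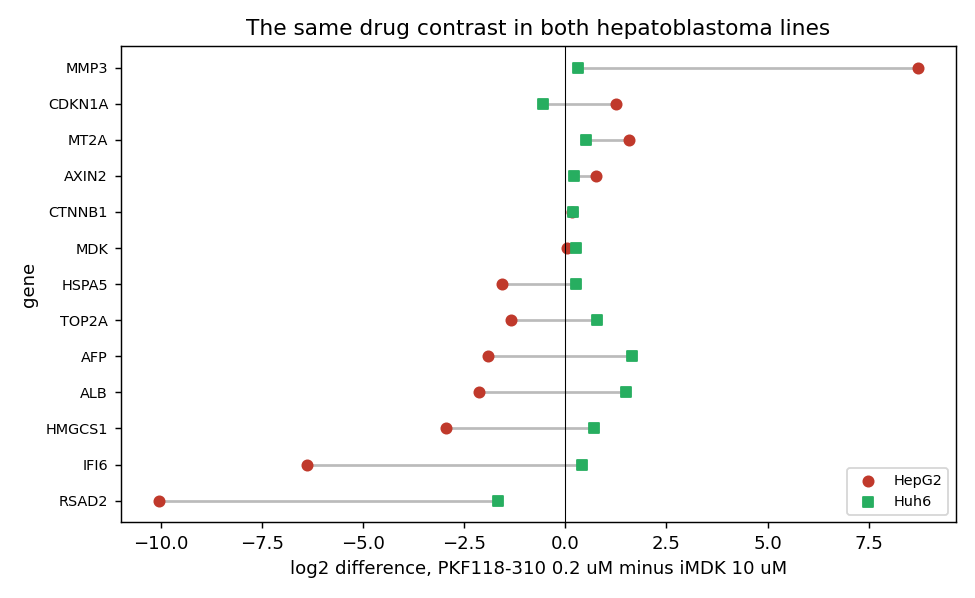
Log2 difference, PKF118-310 0.2 uM minus iMDK 10 uM, of 13 genes in HepG2 (circles) and Huh6 (squares), from the fit of both lines. HMGCS1, ALB, AFP, TOP2A, HSPA5 and CDKN1A lie on opposite sides of 0 in the lines. IFI6 does too, but its Huh6 difference did not pass the test (0.41 ± 0.26). In Huh6, RSAD2 and MMP3 are near 0 CPM, and ALB is low (3.5 mean CPM with PKF118-310 and 1.25 with iMDK).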

How the data were processed

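The values used are raw read counts per gene in 6 HepG2 libraries and the HepG2 and Huh6 libraries set beside them, as deposited by the authors. GRCh38 is the build in the submitters' processing notes, beside the tools STAR (2.7.3a), SAMtools (1.16.1), edgeR (3.36) and featureCounts. For featureCounts, no version, annotation release or strand option is given in the sources used here. Per the labels, the library kit keeps strand.

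edgeR 4.0.16 (under R 4.3.3, with limma 3.58.1) was run on these counts with filterByExpr by group and TMM scaling. Its quasi-likelihood test was fitted with one mean per group over all 13 HepG2 libraries, with Benjamini-Hochberg adjustment across all genes tested and a threshold of 0.05. Printed standard errors are the absolute difference over the root of F, derived afterwards and not reported by the model. On simulated data the script recovered most planted changes. With gene-wise dispersions, however, false calls ran slightly above the threshold in every simulated set of this comparison, so it missed a limit set for that check. A version with dispersions from the fitted trend was added after that failure and met the limit. It leaves out the gene-wise spread of dispersions, so it does not lift the failure. Because of these false calls, adjusted p-values close to 0.05 deserve caution.

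Named genes were the 10 highest and 10 lowest past the threshold (mean log2 CPM of at least 2, no overlap, no clone names), the 5 largest CPM differences per direction, up to 4 per direction in each of 34 lists, and 13 genes that are always given. The text gives a selection of these, some are not reported here, and list members named for not passing, LGR5 at 5 uM and the untested genes were chosen after their values were seen. The members and lists were chosen with earlier results of these data known. Gene positions come from GENCODE 29 on GRCh38, matched by identifier, and promoter windows from RefSeq (GRCh38.p14; 250 bases before to 50 after the start). Same-numbered libraries did not deviate together, so no block was used. Alternatives included DESeq2 1.42.0.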

Additional observations from a re-analysis of the deposited data

Results flagged for a closer look

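For 12 genes the difference between PKF118-310 and iMDK in HepG2 was not the same as in Huh6, by edgeR's interaction test (n = 3 libraries per group, adjusted over 15484 genes). The log2 difference in HepG2 minus that in Huh6 was 0.54 for AXIN2 (adjusted p = 4.68e-18), -0.23 for MDK (7.88e-07), 1.80 for CDKN1A (7.45e-55) and 1.06 for MT2A (2.34e-25). It was -2.12 for TOP2A, -3.66 for HMGCS1, -1.83 for HSPA5, -3.62 for ALB and -3.56 for AFP. In Huh6 the last of these, AFP, was at 66.2 ± 2.08 CPM with PKF118-310 and 21.1 ± 1.95 CPM with iMDK (SD), and ALB was at 3.5 ± 0.468 and 1.25 ± 0.254 CPM.

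The remaining values were -8.40 for RSAD2 (adjusted p = 0.0161), -6.81 for IFI6 and 8.39 for MMP3. In Huh6, RSAD2 and MMP3 were near 0 CPM. IFI6 was low there, at 1.54 mean CPM with PKF118-310 and 1.15 with iMDK. For RSAD2, which had 0.0179 and 0.0699 mean CPM in Huh6, the call was lost without replicate 1 of Huh6 with PKF118-310 (-6.49, adjusted p = 0.98), while over the other alternatives that gave a value it held.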

How the results depend on the processing

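Of 27 alternatives, 15 apply to the counts of genes past the threshold in each HepG2 comparison, and under these the counts stayed within 1.5 times their values. With PKF118-310 against iMDK at 10 uM they ran from 4284 to 4728 higher and 4158 to 4518 lower, and from 699 to 842 and 1116 to 1427 for at least 2-fold differences. Leaving out 1 library gave 4300 to 4348 higher and 4158 to 4247 lower. A robust estimate of the spread was added after seeing the data. Of 3140 values of single genes under the alternatives, 3133 kept direction and side of the threshold. The difference between lines of CTNNB1, which did not pass, changed sign under library size alone (0.03), without a filter (0.01), and without replicate 1 of Huh6 or replicate 2 of HepG2 with PKF118-310 (0.00 each). MDK against iMDK at 5 uM passed with a stricter filter (-0.07, adjusted p = 0.0448) and with only the 6 libraries of that comparison (-0.08, adjusted p = 0.0209, edgeR). RSAD2 between lines lost its call without 1 library (-6.49), and the cause was not tested. Of 2280 list counts, 18 moved by over 1.5 times.

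The fit with a replicate block gave 4550 genes higher and 4481 lower at 10 uM, and 4743 and 4589 at 5 uM. Same-numbered libraries of the groups had correlations of -0.02, -0.04 and -0.01, so the numbers were not taken as a pairing. At this depth a gene under 0.15 CPM has fewer than 3 counts in a library.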
